A study of Homo sapiens with 4 samples.

Results

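The short arm of human chromosome 6 carries the largest cluster of histone genes and, next to it, the major histocompatibility complex (MHC). The replication of this stretch was read in individual S-phase cells of the human colorectal cancer line HCT116 and of DKO1, derived from it by knockout of DNMT1 and DNMT3B, both genes of DNA methyltransferases. The bins were chosen by position alone: all 80 kb bins of chromosome 6 from 25840001 to 33520000 (hg19), without the 7 bins of the olfactory receptor stretch from 29040001 to 29600000. This gave 80 of the 27704 bins of the table. They fall into a histone gene cluster (20 bins, 25840001 to 28000000), a flank of zinc finger genes (13 bins, 28000001 to 29040000), MHC class I (23 bins, 29600001 to 31440000), MHC class III (8 bins, 31440001 to 32240000) and MHC class II (15 bins, 32240001 to 33440000), with 1 further bin at the far edge. Of the 96 positions of the 80 kb grid in this stretch, 9 have no bin in the table: 7 inside the histone cluster, from 26480001 to 27040000, and 2 inside class III, from 31920001 to 32080000. All 80 bins passed the filter on called cells. No gene annotation of that build was used, so the sub-blocks are named by position and no bin was assigned to a gene.

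HCT116 is represented by 322 cells and DKO1 by 207, each line by a lone S-phase library, and the libraries shared 0 cell barcodes. Per the labels, cells of both groups were sorted by DNA content, and early, mid and late S-phase fractions went into 1 pool per line in equal numbers. The knockout of both methyltransferase genes is the labelled difference between them. DKO1 is labelled as one derivative line, and no rescue or further clone was analysed here. A cell's progress through S phase was taken as the replicated percent of all bins called in it; the median cell stood at 52.7% in the HCT116 library and 48.8% in the DKO1 library. For each bin, the standardised share is the percent of cells with that bin replicated, computed within strata of 10 points of progress from 20 to 80% and averaged with equal weight, so that the lines are set side by side at matched progress. With 1 library per line and cells that are not replicates, no test between the lines was made. Intervals are exact binomial (Clopper-Pearson) 95% intervals over cells and cover counting error of cells only. Neighbouring bins mostly share their state in a cell, so counts of bins are not counts of independent observations.

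As background, a chromosome is copied in a set order during S phase, and gene-rich, open chromatin tends to be copied first. The clustered histone genes make the bulk of the histones that package new DNA and are transcribed during S phase. MHC class I genes encode the peptide-presenting molecules found on most cells, class II genes those of antigen-presenting cells, and the class III stretch between them is dense with unrelated genes, among them complement components and TNF. The zinc finger genes next to the histone cluster encode DNA-binding proteins, many of them with SCAN or KRAB domains. DNMT1 copies methylation of CG dinucleotides to new strands, and DNMT3B can methylate unmethylated sites.

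The gene families that name the sub-blocks differ in the sequence these enzymes act on. In RefSeq (GRCh38.p14), 55 protein-coding histone genes lie on chromosome 6: 6 of H1, 12 of H2A, 15 of H2B, 10 of H3 and 12 of H4. They share a run of 74 protein-coding genes with other families. Promoters were matched by symbol for 50 of these 55 histone genes, 8 of 11 zinc finger genes, 4 of 6 HLA class I genes, 52 of 58 class III genes and 12 of 15 HLA class II genes. In the 250 bases before the gene start, the median number of CG dinucleotides (letters CG, the same on both strands) was 8.5 for histone genes, 14.5 for zinc finger genes, 14 for HLA class I genes, 10.5 for class III genes and 2.5 for HLA class II genes, against 11 over all 35116 promoters of the table. At least 1 CG was present in 93.9% of all promoters, and at least 10 in 52.2%. At least 10 were present in 38% of the histone, 62.5% of the zinc finger, 75% of the HLA class I, 55.8% of the class III and 8.33% of the HLA class II promoters. The following 4 stretches show that contrast, each the one closest to its family's median whose 250 bases touch no other gene of the RefSeq table. Capitals mark CG. They are H2AC16 (chr6:27865067-27865316, plus strand, 8 CG), ZSCAN23 (chr6:28443492-28443741, minus strand, 17 CG), HLA-C (chr6:31272093-31272342, minus strand, 15 CG) and HLA-DMA (chr6:32953098-32953347, minus strand, 3 CG), in GRCh38.p14 coordinates that cannot be set beside the hg19 bins:
H2AC16: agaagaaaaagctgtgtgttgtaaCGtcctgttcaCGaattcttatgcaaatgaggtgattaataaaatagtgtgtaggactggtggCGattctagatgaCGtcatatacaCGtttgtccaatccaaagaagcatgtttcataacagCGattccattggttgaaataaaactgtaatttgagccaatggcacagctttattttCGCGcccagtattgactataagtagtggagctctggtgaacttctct
ZSCAN23: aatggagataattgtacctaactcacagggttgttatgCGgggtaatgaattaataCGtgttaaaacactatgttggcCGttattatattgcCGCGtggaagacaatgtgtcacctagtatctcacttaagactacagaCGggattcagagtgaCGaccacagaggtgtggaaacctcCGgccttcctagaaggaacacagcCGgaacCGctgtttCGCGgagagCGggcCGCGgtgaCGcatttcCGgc
HLA-C: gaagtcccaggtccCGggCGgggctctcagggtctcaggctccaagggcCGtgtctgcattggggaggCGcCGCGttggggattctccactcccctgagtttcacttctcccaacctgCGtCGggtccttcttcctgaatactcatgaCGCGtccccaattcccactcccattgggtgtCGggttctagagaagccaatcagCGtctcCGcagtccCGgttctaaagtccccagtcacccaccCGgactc
HLA-DMA: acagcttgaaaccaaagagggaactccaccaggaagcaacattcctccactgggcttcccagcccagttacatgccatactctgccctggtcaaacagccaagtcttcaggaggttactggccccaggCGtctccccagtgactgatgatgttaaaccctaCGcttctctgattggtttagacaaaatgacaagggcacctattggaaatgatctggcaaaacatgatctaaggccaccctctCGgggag
Methylation of these sequences was not measured in the files used here, and their part in the timing of any bin was not tested.

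The first question was how the sub-blocks are ordered in the parental line. The MHC was copied early and the histone cluster and its zinc finger flank in the middle of S phase. In HCT116 the mean standardised share was 98.5% in class III, 91.1% in class II and 88.4% in class I, against 59.7% in the zinc finger flank and 53.8% in the histone cluster. The median over all 27142 used bins was 50.7%. All 46 MHC bins lay in the early class of bins, the earliest of 3 equal classes by the mean share of both lines, and all 33 bins of the histone cluster and zinc finger flank in the middle class.

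Within the histone cluster the shares of HCT116 ranged from 40.7 to 71.2%. The highest was in the bin from 26320001 to 26400000, replicated in 241 of 321 cells of HCT116 (75.1%, interval 69.97 to 79.7%) and 124 of 203 of DKO1 (61.1%, 54.0 to 67.8%). The lowest was in the bin from 26080001 to 26160000, replicated in 132 of 320 cells of HCT116 (41.2%, 35.8 to 46.9%) and 58 of 202 of DKO1 (28.7%, 22.6 to 35.5%). Counts of cells of this kind were not matched in progress. The cluster held both replicated and unreplicated bins in 62.4% of HCT116 and 66.7% of DKO1 cells. The parts followed the same order in both lines: among cells in which only 1 of 2 stretches was mostly replicated, the 2 bins with a share of 70% or more in HCT116, from 26320001 to 26480000, came before the 5 bins under 50%, from 25840001 to 26240000, in 104 of 108 cells of HCT116 (96.3%, 90.8 to 98.98%) and 62 of 68 of DKO1 (91.2%, 81.8 to 96.7%). The part of the cluster past the missing bins, from 27040001 to 28000000, had a mean share of 54.7% in HCT116 and 42.8% in DKO1. Across the missing 560 kb the share dropped by 20.5 points in HCT116 and dropped by 23.0 points in DKO1. These stretches were chosen after their values were seen, on the HCT116 shares, so their order in HCT116 is a description.

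In the zinc finger flank the highest share of HCT116 was 68.6%, from 28160001 to 28240000 (56.2% in DKO1), and the lowest 52.2%, from 28560001 to 28640000 (41.3% in DKO1). Between the last bin of the flank and the first bin of class I, which lie on either side of the 560 kb left out, the share was higher on the class I side by 22.4 points in HCT116 and by 39.8 points in DKO1. In class I the lowest share of HCT116 was 76.2% in the first bin, from 29600001 to 29680000, and the highest 99.1% in the last, from 31360001 to 31440000. Class III spanned 97.6 to 99.4% in HCT116 and 98.8 to 99.2% in DKO1. Class II ran from 73.7 to 99.01% in HCT116 and held a dip inside it, described below.

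**Figure D1:**
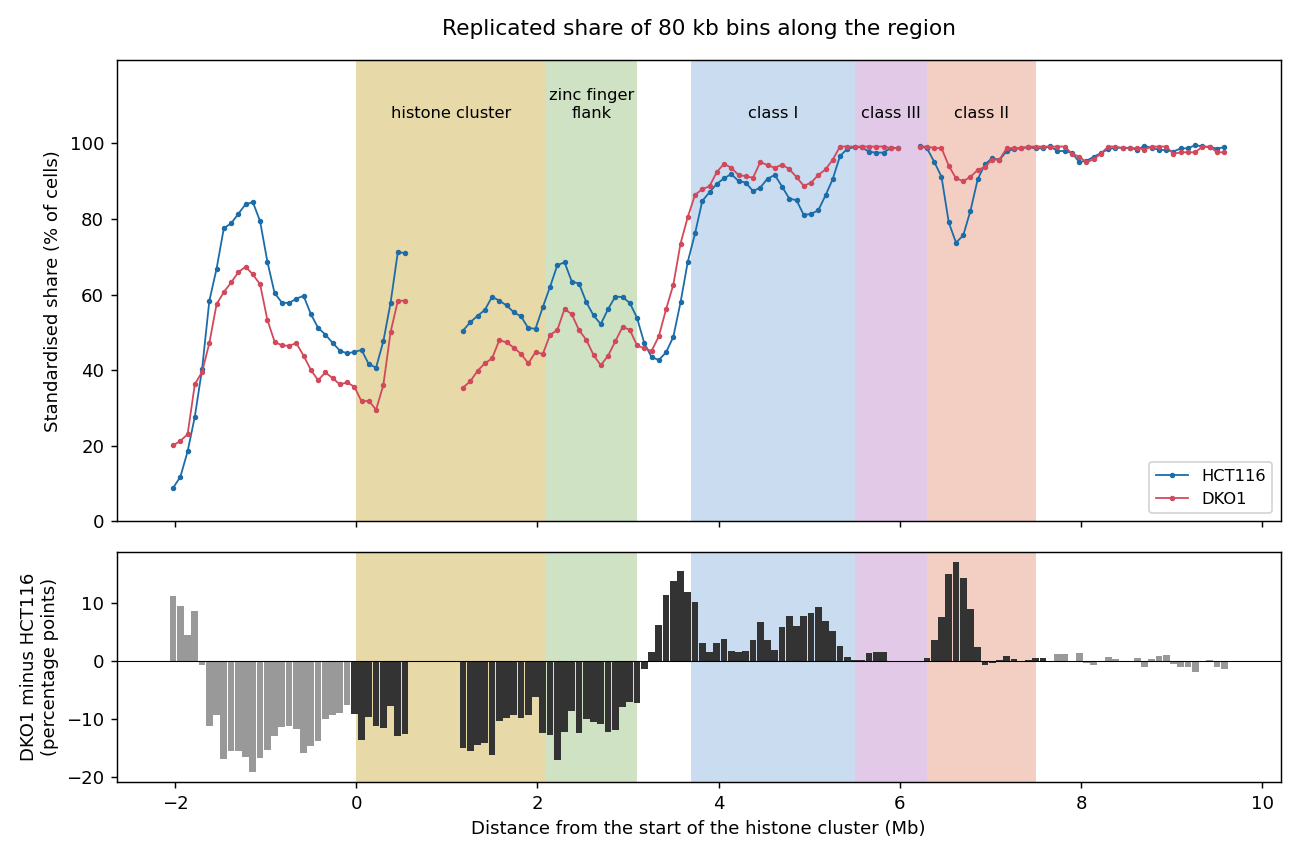
Standardised share of each 80 kb bin in HCT116 and DKO1 (upper panel, percent of cells at matched progress) and the difference in percentage points (lower panel), by distance in Mb from the start of the histone cluster, with the sub-blocks shaded, the olfactory receptor stretch unshaded and 2 Mb of flank on either side in grey bars. DKO1 lies below HCT116 in all 33 bins of the histone cluster and zinc finger flank and above it in all 23 class I bins and at the class II dip.

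The next comparison set the lines side by side. In DKO1 the histone cluster and the zinc finger flank had a lower mean share at matched progress. MHC class I and class II had a higher one, by a smaller margin. Mean shares of the MHC sub-blocks in HCT116 were near the upper limit of the scale, most of all in class III. That limit bounds any rise, so the sizes of rises and falls cannot be compared directly. The mean share of the histone cluster was 53.8% in HCT116 and 42.3% in DKO1 (-11.6 points), and that of the zinc finger flank 59.7 and 48.8%, a difference of -10.9 points. Class I stood at 88.4 and 92.9% (4.47 points higher in DKO1), class II at 91.1 and 95.8% (4.66 points) and class III at 98.5 and 99.1% (0.63 points). The direction was the same in every bin of 3 sub-blocks: all 20 histone cluster bins and all 13 zinc finger bins were lower in DKO1, and all 23 class I bins were higher. In class II 13 of 15 bins were higher, and in class III 5 of 8. Percents of cells with most of a sub-block replicated were also taken over all cells, not matched in progress. Intervals overlapped in class I (90.9 to 96.4% in HCT116, 93.6 to 98.9% in DKO1) and class II (94.3 to 98.5% and 95.01 to 99.5%). They did not overlap in the histone cluster (49.4 to 60.5%, 31.5 to 45.3%) or the zinc finger flank (56.8 to 67.6%, 39.6 to 53.7%). On this coarser count the rise of class I and class II was not set apart from counting error.

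Over all used bins the median difference was 0.0085 points, and 50.04% of bins were higher in DKO1. In the middle class, to which the histone cluster and zinc finger bins belong, the median was -2.24 points and 57.1% of bins were lower in DKO1, against a median of -11.2 points and 33 of 33 bins in these sub-blocks. In the early class, which holds the MHC, the median was -2.31 points and 30.3% of bins were higher in DKO1, against a median of 2.17 points and 41 of 46 bins in the MHC. By a fixed size of at least 15 points, 4 of the 80 bins were lower in DKO1, where 7.39% of all used bins were, and 1 was higher, where 6.90% were. Neither count was above the share of the whole table. All used bins include late bins, and these 80 do not. The 4 lower bins were among the 33 of the histone cluster and zinc finger flank, against 1367 of 9047 middle-class bins. The 1 higher bin was among the 46 of the MHC, against 80 of 9047 early-class bins. By at least 10 points, 20 of the 80 bins were lower, against 14.8% of all used bins, and 4 were higher, against 14.7%. Those 20 were again among the 33, against 2442 of 9047 middle-class bins. The 4 higher bins were among the 46 of the MHC, against 283 of 9047 early-class bins. By at least 20 points, 0 of the 80 bins were lower, against 3.57% of all used bins, and 0 were higher, against 3.24%.

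The 5 bins with the largest negative differences were 1 of the zinc finger flank and 4 of the histone cluster. From 28080001 to 28160000, in the zinc finger flank, the shares were 67.8% for HCT116 and 50.6% for DKO1 (-17.2 points). In the histone cluster it was 59.4 and 43.1% from 27360001 to 27440000, 52.7 and 37.1% from 27120001 to 27200000, 50.5 and 35.4% from 27040001 to 27120000, and 54.4 and 39.8% from 27200001 to 27280000. The 4 histone cluster bins all lie in the part of the histone cluster just past the missing bins. The lower shares did not begin at the cluster: the unbroken run of bins lower in DKO1 went from 24160001 to 29120000, with 55 bins, a mean difference of -11.6 points, and 21 bins ahead of the cluster. The bin just outside the chosen bins on that side, from 25760001 to 25840000, had 44.4% in HCT116 and 36.7% in DKO1, and the first chosen bin 44.8 and 35.6%. On the other side, the bin from 33520001 to 33600000 had 99.2% in both lines and the last chosen bin 98.7 and 99.2%.

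**Figure D2:**
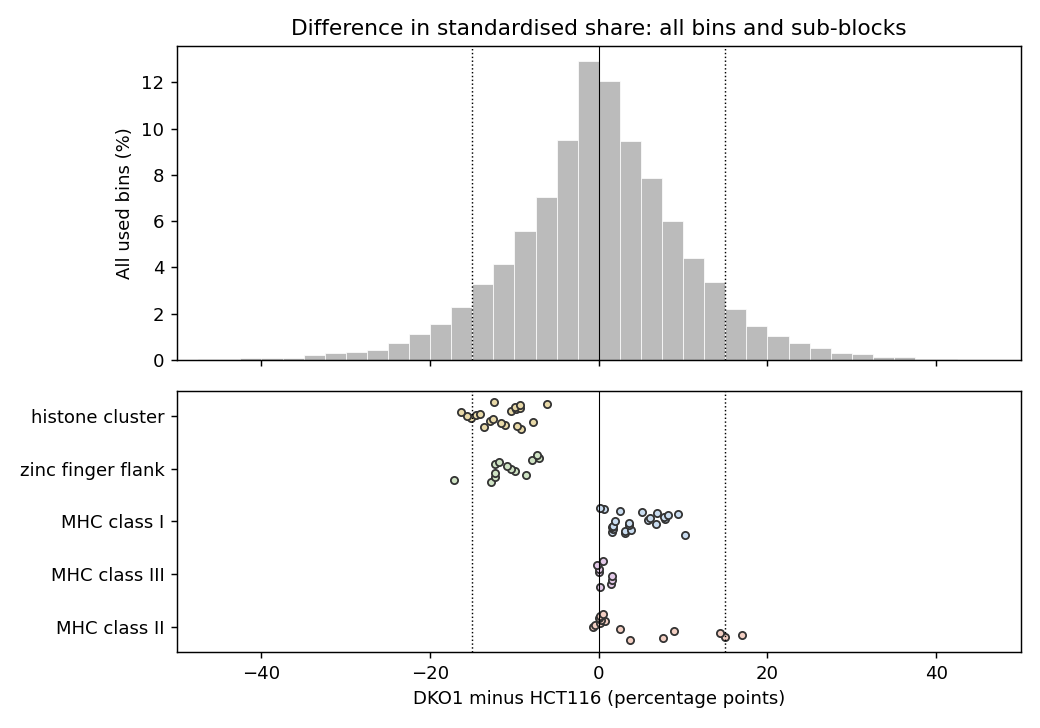
Distribution of the difference in standardised share (DKO1 minus HCT116, percentage points) over all 27142 used bins (upper panel, percent of bins) and each bin of the 5 sub-blocks (lower panel, 1 point per bin, spread vertically for legibility), with dotted lines at 15 points in either direction. The histone cluster and zinc finger bins sit between -17.2 and -6.20 points, class I between 0.12 and 10.2, and class III close to 0.

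By progress of the cell, the gap of the histone cluster was seen from 40% progress on. Under 40% progress the cluster was mostly replicated in hardly any cell of either line: 1 of 48 HCT116 and 1 of 40 of DKO1 at 30 to 40%. At 40 to 50% it was mostly replicated in 19 of 60 cells of HCT116 (31.7%, 20.3 to 45.0%) and 13 of 52 of DKO1 (25%, 14.03 to 38.9%), with overlapping intervals. The mean replicated percent of the cluster was 42.8 in HCT116 and 32.9 in DKO1 there, against 12.6 and 12.25 at 30 to 40%. At 50 to 60% the counts were 57 of 78 (73.1%, 61.8 to 82.5%) and 23 of 50 (46%, 31.8 to 60.7%), and at 60 to 70% 81 of 82 (98.8%, 93.4 to 99.97%) and 34 of 40 (85%, 70.2 to 94.3%). At 50 to 60% the intervals did not overlap. At 70 to 80% the counts were 19 of 19 (82.4 to 100%) and 7 of 10 (70%, 34.8 to 93.3%), with overlapping intervals. Every bin of the cluster was replicated in 18 and 3 of these cells. HCT116 cells were slightly more advanced at 40 to 50% (mean progress 45.4 against 44.3%), 50 to 60% (55.1 against 54.2%) and 70 to 80% (72.97 against 72.6%). At 60 to 70% DKO1 cells were (65.3 against 64.97%). The part of this in the gap was not tested.

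In the zinc finger flank the direction of the gap was not the same in all strata. At 20 to 30% progress most of it was replicated in 1 of 33 cells of HCT116 and 0 of 11 of DKO1, for which the exact interval reaches 28.5%. At 30 to 40% it was mostly replicated in 2 of 48 cells of HCT116 (4.17%, 0.51 to 14.3%) and 10 of 40 of DKO1 (25%, 12.7 to 41.2%), with intervals that overlap slightly. At 40 to 50% it was in 33 of 60 (55%, 41.6 to 67.9%) and 18 of 52 (34.6%, 21.97 to 49.1%), again with overlapping intervals. At 50 to 60% the counts were 63 of 77 (81.8%, 71.4 to 89.7%) and 28 of 50 (56%, 41.3 to 70.01%), and these intervals did not overlap. At 60 to 70% all 82 HCT116 cells had most of it replicated (95.6 to 100%) and 30 of 40 of DKO1 (75%, 58.8 to 87.3%), again without overlap. At 70 to 80% it was 19 of 19 (82.4 to 100%) and 9 of 10 (90%, 55.5 to 99.7%), with overlapping intervals.

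Logistic curves of state were fitted against progress measured on the other chromosomes. On them the histone cluster reached 50% replicated at a progress of 48.3% in HCT116 and 54.05% in DKO1, 5.72 points later. A standard error of 1.48 for this gap comes from a separate fit to 1 call per cell, mostly replicated or not. It covers counting error of cells only. In cells with no more than 1% of bins at code 0 the gap was 3.38 points, a setting that kept 246 HCT116 and 82 DKO1 cells. The zinc finger flank reached 50% at 44.8 and 50.7%, 5.88 points later (standard error 1.88, from the same kind of separate fit). From 25 to 75% replicated, the curve of the histone cluster took 15.2 points of progress in HCT116 and 22.2 in DKO1, and that of the zinc finger flank 13.9 and 23.4 points. Curves for the MHC could not be placed in either line. The rule asked for a rise with progress and at least 5 cells on each side of the fitted midpoint, and no MHC sub-block met it.

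**Figure D3:**
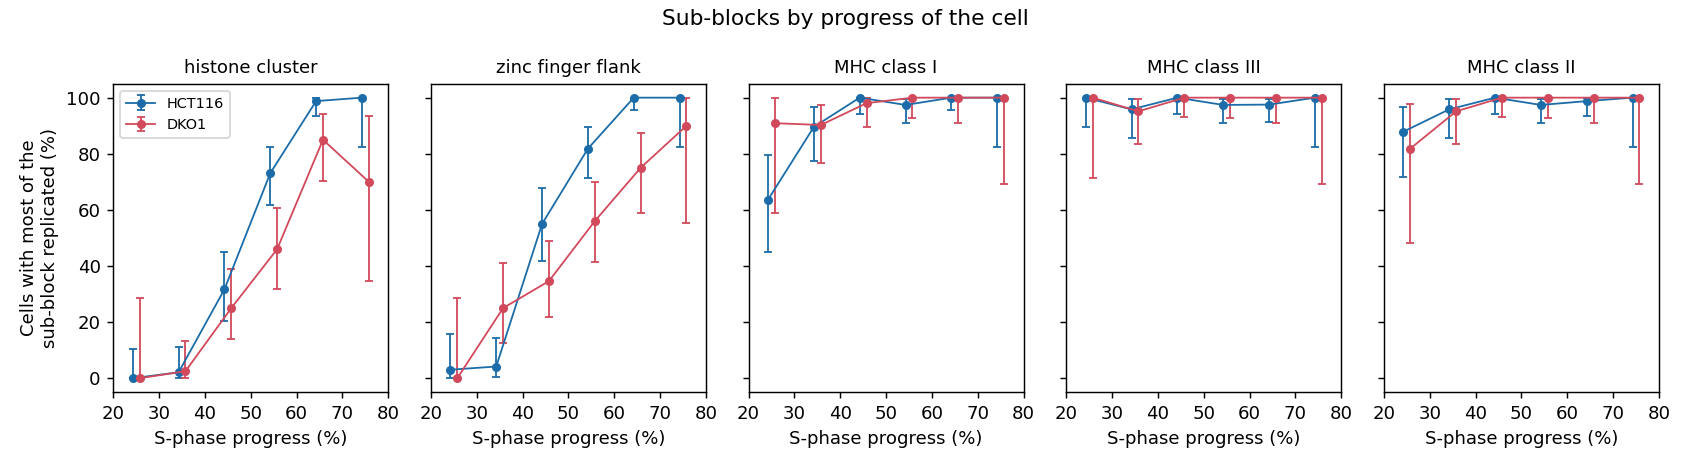
Percent of cells with most of a sub-block replicated, by stratum of S-phase progress (percent, 6 strata of 10 points drawn at their centres with a small offset between lines), in HCT116 and DKO1, with exact 95% intervals over cells as bars. DKO1 lies below HCT116 from 40% progress on in the histone cluster, at 50 to 60% with 46 against 73.1%, and in the zinc finger flank, where it lies above HCT116 at 30 to 40% (25 against 4.17%), while the MHC curves overlap above 30%.

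In MHC class I the difference between the lines was largest in the least advanced cells. At 20 to 30% progress a mean of 57.2% of class I was replicated in 33 HCT116 cells and 79.4% in 11 DKO1 cells. Most of it was replicated in 21 of 33 (63.6%, 45.1 to 79.6%) and 10 of 11 cells (90.9%, 58.7 to 99.8%), and these intervals overlap. At 30 to 40% the means were 83.7 and 85.8%, and at 40 to 50% 94.7 and 93.3%. In those first 2 strata the DKO1 cells were also slightly more advanced, with a mean progress of 27.1 against 26.1% and of 36.3 against 34.8%; the part of this in the result was not tested. With strata from 30 to 70% only, the class I difference was 1.14 points. The class I bin with the largest difference was the first, next to the olfactory receptor stretch, with 76.2% in HCT116 and 86.4% in DKO1. A second low stretch of class I, the 3 bins from 30800001 to 31040000, chosen after its values were seen as the bins past the first with under 84% in HCT116, had 81.6 and 90.01%.

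Class II held the largest positive differences. Its left and right parts were replicated in nearly all cells, and between them lay a dip of 3 bins from 32400001 to 32640000, chosen after its values were seen as the bins with under 80% in HCT116, with a mean share of 76.2% in HCT116 and 91.6% in DKO1, 15.5 points higher. Since low HCT116 values chose the bins of the dip, the difference is a description. Bin by bin the shares were 79.1 and 94.1%, then 73.7 and 90.8%, then 75.7 and 90.03%. The middle bin, from 32480001 to 32560000, was replicated in 252 of 320 cells of HCT116 (78.8%, 73.9 to 83.1%) and 190 of 202 of DKO1 (94.1%, 89.9 to 96.9%). The 5 bins from 33040001 to 33440000, those of 98% or more in HCT116 on the right, stood at 98.6 and 98.9%.

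The dip was a gap in individual cells. Among cells with class III and the right part of class II mostly replicated, the dip was still mostly unreplicated in 28 of 33 cells of HCT116 at 20 to 30% progress (84.8%, 68.1 to 94.9%) and 4 of 11 of DKO1 (36.4%, 10.9 to 69.2%). At 30 to 40% it was so in 25 of 46 cells of HCT116 (54.3%, 39.01 to 69.1%) and 5 of 39 of DKO1 (12.8%, 4.30 to 27.4%), and at 40 to 50% in 5 of 60 (8.33%, 2.76 to 18.4%) and 1 of 51 (1.96%, 0.050 to 10.4%). The intervals did not overlap at 30 to 40%. DKO1 cells were slightly more advanced at 20 to 30% (mean progress 27.1 against 26.1%) and at 30 to 40% (36.3 against 34.8%). The part of this in the gap was not tested. At 50 to 60% the gap remained in 1 of 75 cells of HCT116 and 0 of 49 of DKO1 (exact interval up to 7.25%; 3 counts of 49 are 6.12%). With strata from 30 to 70% only, the difference in share of the dip was 11.6 points.

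**Figure D4:**
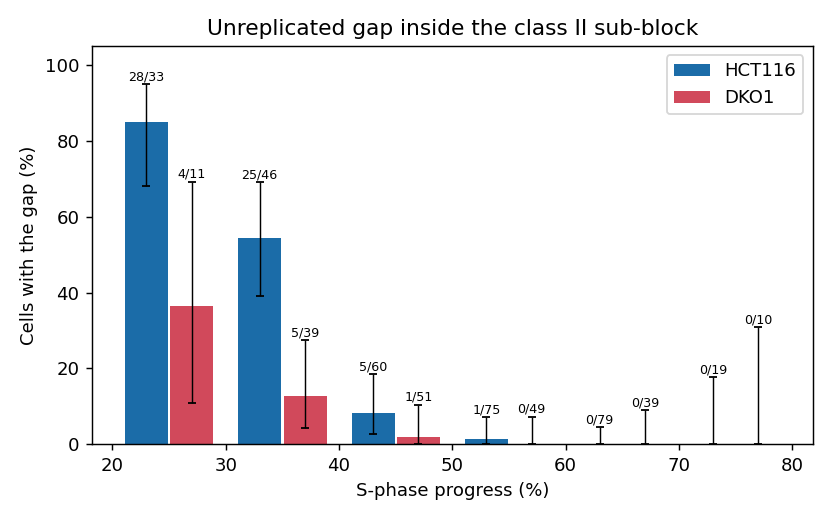
Percent of cells in which the 3 bins of the class II dip were mostly unreplicated while class III and the right part of class II were mostly replicated, by stratum of S-phase progress, in HCT116 and DKO1, with exact 95% intervals and the counts of cells above the bars. At 30 to 40% progress the gap was seen in 25 of 46 cells of HCT116 and 5 of 39 of DKO1, and past 50% in 1 HCT116 cell.

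The order of the sub-blocks was also read inside each cell. A sub-block counted as replicated where over 50% of its called bins were. In 303 of 320 cells of HCT116 (94.7%, 91.6 to 96.9%) and 184 of 201 of DKO1 (91.5%, 86.8 to 94.996%) the replicated sub-blocks followed the order class III, class II, class I, zinc finger flank, histone cluster without an exception. This order is also that of the mean shares in both lines, read from the same cells, so the counts are a description. These counts include cells with 0 or all 5 sub-blocks replicated, which fit any order. Such cells numbered 3 and 165 in HCT116 and 1 and 60 in DKO1, so the percents overstate how often the order could be read. Among cells with only 1 of the pair replicated, class I came before the zinc finger flank in 103 of 104 cells of HCT116 (99.04%, 94.8 to 99.98%) and 104 of 104 of DKO1 (96.5 to 100%). Such cells, with class I copied and the flank not, made up 32.19% of HCT116 and 51.7% of DKO1 cells, a count that was not matched in progress. The zinc finger flank came before the histone cluster in 32 of 40 cells of HCT116 (80%, 64.4 to 90.9%) and 32 of 47 of DKO1 (68.1%, 52.9 to 80.9%), with overlapping intervals. Class II came before class I in 15 of 21 cells of HCT116 (71.4%, 47.8 to 88.7%) and 4 of 6 of DKO1, too few to set the order.

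The border between unreplicated flank and replicated class I was placed in each of those 103 HCT116 and 104 DKO1 cells, at the split that left the fewest bins on the wrong side. The states switched cleanly, with 0 bins on the wrong side, in 33 HCT116 and 46 DKO1 cells, so in most cells the position is a best fit to a mixed pattern. Its median position was 29600000 in HCT116 (quartiles 29440000 and 29680000) and 29440000 in DKO1 (29200000 and 29540000). It lay at or past the start of class I in 53 of 103 cells of HCT116 (51.5%, 41.4 to 61.4%) and 26 of 104 of DKO1 (25%, 17.03 to 34.4%). In DKO1 more of these borders lay ahead of class I, mostly inside the olfactory receptor stretch, whose 7 bins had a mean share of 50.5% in HCT116 and 58.9% in DKO1. The cells with a border were not matched in progress. At 60 to 70% progress the flank was mostly replicated in all 82 HCT116 cells and in 30 of 40 DKO1 cells, so only DKO1 cells of that stratum could enter. The part of this in the border positions was not tested.

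The last comparison asked how far cells of one line differ from each other at matched progress. Pairs of cells from the range of 40 to 60% progress, no more than 5 points apart, differed in 42.5% of histone cluster bins in HCT116 and 44.6% in DKO1, and in 38.99 and 47.8% of zinc finger bins. For the middle class of all used bins the values were 36.5 and 41.2%. In the MHC the values were 8.07 and 6.09% in class I, 5.04 and 0.48% in class II, and 3.38 and 0% in class III, where all called DKO1 cells of that range were replicated throughout. In the early class of all used bins they were 6.45 and 13.5%. These values rest on 138 HCT116 and 104 DKO1 cells. Pairs can differ only where some cells are replicated and others not, so these percents also depend on the replicated share. In the zinc finger flank a mean of 54.6% was replicated in HCT116 and 39.6% in DKO1 at 40 to 50% progress. At 50 to 60% progress the means were 80.9 and 56.2%. Spread between cells was therefore not separated from the difference in share.

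The sizes of the gaps between the lines in pair differences depended on the cells taken, and in class I the direction did too. These gaps were not separated from the difference in share either. With cells from 30 to 70% progress, the difference (DKO1 minus HCT116) was 9.18 points in the histone cluster, against 2.06 at 40 to 60%, and 18.3 points in the zinc finger flank, against 8.82. In class I it was 1.69 points, against -1.98, in class II -1.76, against -4.55, and in class III -1.66, against -3.38. With no more than 1% of bins at code 0 it was 4.13 points in the histone cluster and -1.23 points in class I.

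In 2 HCT116 cells, at 52.3 and 56.5% progress, the whole MHC, zinc finger flank and histone cluster were called unreplicated, while 34.2 and 40.9% of all their chromosome 6 bins were replicated. All other called HCT116 cells at 40 to 60% progress had class III replicated throughout, 60 of 60 at 40 to 50% and 75 of 77 at 50 to 60%, so the class III value of HCT116 came from these 2 cells alone. Cells whose replicated share of chromosome 6 was over 15 points off the line's trend with progress were then left out, a setting chosen after seeing the data. This took out 3 HCT116 and 4 DKO1 cells of that range, among them the cell at 52.3% progress but not the one at 56.5%, which was -14.8 points off the trend. Class I then gave 6.41 and 6.33%, class II 3.38 and 0.52% and class III 1.69 and 0%, the last from the cell that stayed in.

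Code 0, read as not called, was rare in these bins: 0.49% of HCT116 calls and 2.17% of DKO1 calls, against 1.08 and 2.80% over the whole table. Its part in the differences was not tested. A setting with only cells of no more than 1% of bins at code 0 kept 246 of 322 HCT116 and 82 of 207 DKO1 cells. Of these, 206 and 78 were compared, at 30 to 70% progress. The differences were -9.66 points in the histone cluster, -13.02 in the zinc finger flank, 2.43 in class I, 5.004 in class II and 15.003 in the class II dip.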

How the data were processed

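The data are replication states of individual S-phase cells. Per the labels' protocols, cells were stained for DNA content, sorted, and prepared with a droplet copy-number kit (10x Single Cell CNV). The authors deposited 1 table of state codes (0, 1 or 2), a score-like code per 80 kb bin and cell, from a binarised hidden Markov model, going by the table's name. Cell Ranger, SAMtools (1.10), bedtools (2.26.0), hg19 and GRCh37 are listed in the submitters' processing notes. What software ran the model is not given in the sources used here, nor is read depth, which is therefore unknown for every call. The G1 libraries were not analysed here. No doublet filter was applied here, and none by the authors is given in the sources used here.

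Code 2 was read as replicated, code 1 as unreplicated and code 0 as not called: over 21 chromosomes of 100 or more bins, code 2 was more frequent with a higher number of protein-coding genes per bin (rank correlation, Spearman's, 0.85 for HCT116 and 0.87 for DKO1, a description). Bins called in at least 90% of cells of both lines were used. A bin belongs to the sub-block it overlaps most, a tie going to the lower coordinate. The 6 strata from 20 to 80% progress, each with at least 5 cells of each line, were used, with 320 HCT116 and 206 DKO1 cells. No test between lines was made. Named bins are the highest and lowest of each sub-block in HCT116, the 5 largest differences in each direction, and neighbours that differ by at least 20 points. Stretches within sub-blocks were cut at fixed HCT116 shares set after the values were seen, and each border was sought from the start of the zinc finger flank to the class I bin before the second low stretch. The bins and alternatives were chosen with earlier results of these data known. Functions were tested on simulated data. Work used Python 3.11.15, NumPy 2.4.6 and SciPy 1.17.1, and promoters came from RefSeq (GRCh38.p14).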

Additional observations from a re-analysis of the deposited data

Results flagged for a closer look

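Code 0, which the shares leave out, took a larger percent of calls in DKO1 than in HCT116 in all 5 sub-blocks. It stood at 1.91% of DKO1 calls in the histone cluster (0.20% in HCT116), 1.56% in the zinc finger flank (0.43%), 2.5% in MHC class I (0.62%), 2.42% in class III (0.62%) and 2.42% in class II (0.62%). These values rest on few cells: over 50% of the class III bins were at code 0 in 5 of 207 cells of DKO1 (2.42%, exact interval 0.79 to 5.55%) and 2 of 322 of HCT116 (0.62%, 0.075 to 2.23%), and the intervals overlap.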

How the results depend on the processing

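The difference (DKO1 minus HCT116) ran from -14.7 to -8.28 points in the histone cluster and from -15.3 to -9.98 points in the zinc finger flank under the main setting and 9 alternatives. Class I was higher by 1.14 to 4.67 points, class II by 2.49 to 5.004 and the class II dip, whose alternatives were chosen after seeing the data, by 11.6 to 15.5. The class III difference was -2.26 points with code 0 as unreplicated, a setting that also left 5 strata, from 20 to 70% (302 HCT116 and 201 DKO1 cells), and 0.35 to 1.66 otherwise.
The count of bins lower in DKO1 by at least 15 points (4) was 15 without matching of progress, 1 with code 0 as unreplicated, 2 without cells with an outlying chromosome 6, 20 at a threshold of 10 points and 0 at 20 points. The count of bins higher (1) was 0 with progress taken without chromosome 6, with strata from 30 to 70% or at a threshold of 20 points, and 4 at 10 points. When a sub-block had to be at least 75% or at most 25% replicated, class II came before class I in 50% of the HCT116 cells with 1 of them only, and the zinc finger flank before the histone cluster in 100%; fewer cells enter this setting. The cause of the other changes was not tested. No member bin was called in at least 99% of cells, so that setting gave no value. No paired analysis was possible because each line has 1 S-phase library. The depth per cell is unknown, and 11 DKO1 cells at 20 to 30% progress limit what can be said of early S phase.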

Other observations

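The whole MHC was called unreplicated in 2 of 320 cells of HCT116 and 2 of 202 of DKO1. The HCT116 cells stood at 52.3 and 56.5% progress and the DKO1 cells at 30.4 and 38.5%, while 34.2, 40.9, 14.3 and 21.6% of their chromosome 6 bins were replicated. In both HCT116 cells and the DKO1 cell at 38.5% the histone cluster and zinc finger flank were unreplicated too; in the DKO1 cell at 30.4% they were not called. Code 0 took 0.84 and 0.86% of the used bins in these HCT116 cells and 12.8 and 6.79% in these DKO1 cells.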
